A study of Mus musculus with 11 samples.

Results

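The vascular endothelial growth factor (VEGF) family was followed in sorted endothelial cells (ECs) from the livers of colonized mice (conventionally raised, CONV-R) and of mice reared germ-free (GF) through 9 genes: the receptors *Kdr*, *Flt1* and *Flt4*, the neuropilins *Nrp1* and *Nrp2*, and the ligands *Vegfa*, *Vegfb*, *Vegfc* and *Pgf*. They were taken by gene symbol from the 29307 genes listed in the count table by a rule that uses no measured value, although the set was put together with earlier results of these data known. Of the 9 genes, 8 had enough reads to be tested together with 12905 genes in all, and *Pgf* did not. The RNA came from male C57BL/6J mice of 10 to 12 weeks that carried no transgene and received no agent. GF mice were kept in isolators without a microbiota (5 libraries), and CONV-R mice were colonized, specific pathogen-free animals of the same colonies (6 libraries), both on the same autoclaved chow. The cells were enriched on CD146 beads and sorted as CD31+, CD105+ and CD146+, so none of the 9 genes was used to select them. The series describes the material as sinusoidal ECs and gives 5 and 6 mice, which makes each library 1 animal.

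VEGF-A acts on ECs mainly through VEGFR2, the product of *Kdr*, whereas VEGFR1 (*Flt1*) binds VEGF-A, VEGF-B and placental growth factor tightly but signals weakly and can act as a decoy. VEGFR3 (*Flt4*) is the receptor of VEGF-C and VEGF-D and is best known from lymphatic vessels, although the sinusoidal ECs of the liver carry it as well. Neuropilins have no kinase domain and serve as co-receptors for VEGFs and for class 3 semaphorins. In the liver, VEGF-A from neighbouring cells helps to maintain the open pores of the sinusoidal endothelium.

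*Vegfa* was the gene of the family that differed between GF and CONV-R ECs, and it was lower in GF. Its mean level was 30.5 ± 10.2 CPM (SD, n = 5) in GF and 63.6 ± 17.7 CPM (SD, n = 6) in CONV-R. The receptors, neuropilins and remaining ligands did not pass the test, with *Vegfc*, *Flt4* and *Flt1* at higher and *Nrp2* at lower mean levels in GF. Thus 1 of 8 tested members was called, where 7.48% of all tested genes were called at an adjusted p of 0.05 (4.80% higher and 2.67% lower in GF). By edgeR's quasi-likelihood test, adjusted over all tested genes after Benjamini and Hochberg, 0 members were called higher in GF. At an unadjusted p under 0.05 there were 3 higher and 2 lower members. DESeq2 called 1 higher member (*Vegfc*) and 1 lower (*Vegfa*), and limma voom called 0 higher and 1 lower (*Vegfa*). CPM is the raw count of a gene scaled to a library total of 1000000, with totals corrected by TMM for differences in composition between libraries. Log2 fold changes (Log2FC) are GF relative to CONV-R, and the median Log2FC over all tested genes was -0.0061.

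**Figure D1:**
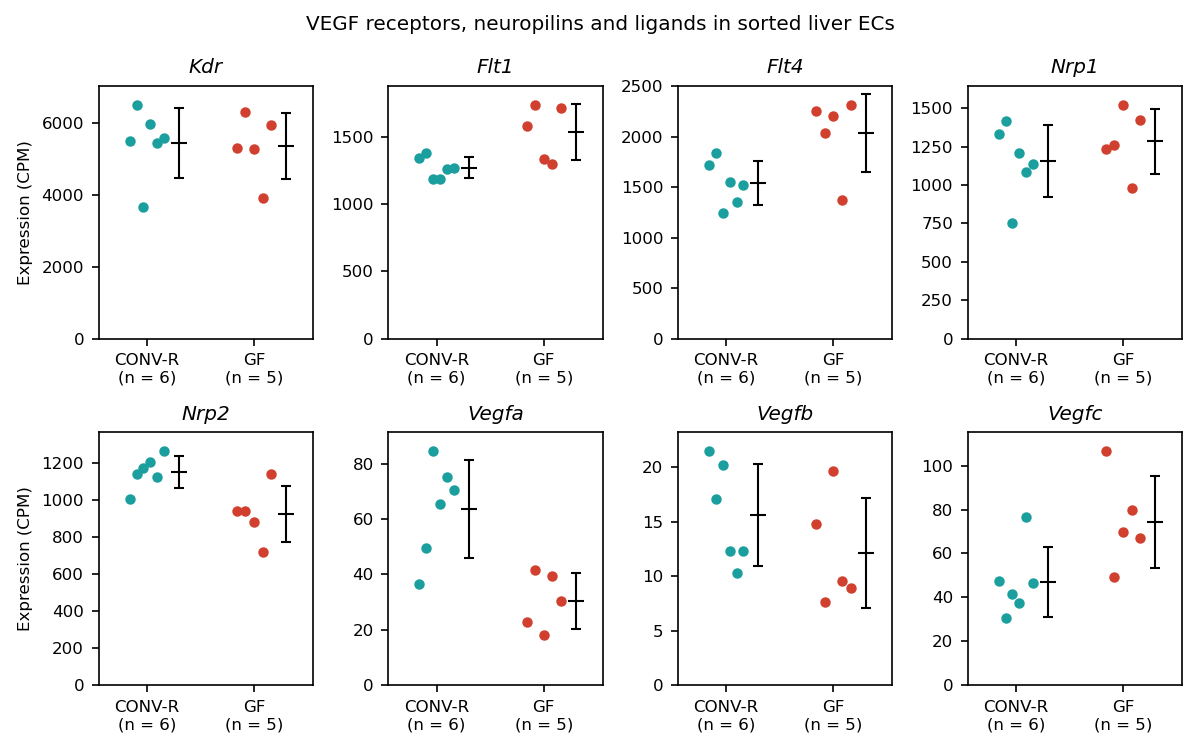
Expression of the 8 tested VEGF family genes in CPM on linear axes that start at 0, with 1 point per library for CONV-R (turquoise) and GF (red) and the mean with its SD as bars beside the points. *Vegfa* fell from a mean of 63.6 to 30.5 CPM, and the low *Kdr* and *Nrp1* points are CONV-R replicate 3 and GF replicate 5.

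Total counts ran from 7922855 to 14669352 in the CONV-R libraries and from 7242717 to 16164588 in the GF libraries. The 9 genes together took 0.839% to 1.24% of the counts of a CONV-R library and 0.879% to 1.23% of a GF library. The 10 markers of sinusoidal ECs, such as *Stab2* and *Lyve1*, summed to 34400 to 44430 CPM in CONV-R and 33900 to 48830 CPM in GF, and edgeR called none of them (3 higher at an unadjusted p under 0.05, none by DESeq2 or voom). The 8 pan-endothelial markers likewise held no call, with 3 higher at an unadjusted p under 0.05 and none by DESeq2 or voom. Without GF replicate 5, and again without it and CONV-R replicate 3, edgeR called 2 of the 10 sinusoidal and 3 of the 8 pan-endothelial markers higher in GF. Of 10 Kupffer cell markers, 7 were called higher in GF, and their sum was 86.0 to 222 CPM in CONV-R (median 106) and 197 to 931 CPM in GF (median 288), highest in GF replicate 6. Without that library 3 of the 10 were called, and without any 1 library 3 to 8. Of 8 markers of large-vessel and continuous ECs, 3 were called higher in GF (*Gja4*, *Ly6c1* and *Cd34*) and 0 lower. At an unadjusted p under 0.05, 4 were higher and 1 lower, while DESeq2 called 4 higher and voom 3. *Aqp1* (Log2FC -0.29) and *Rspo3* (-0.82), named after their values were seen, had lower means in GF and were not called. The list summed to 1666 to 2093 CPM in CONV-R and 1160 to 2185 CPM in GF. Most of this was *Aqp1*, at a mean of 1366 CPM in CONV-R and 1118 CPM in GF. No gene of these 4 lists was at 0 in all libraries. In bulk RNA, fewer cells of a type and less RNA per cell cannot be told apart. CONV-R replicate 3 and GF replicate 5 had the lowest *Kdr* and the lowest total counts of their groups. Results that rest on them are given with and without them.

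Per exon length, *Kdr* was the most abundant member in both groups. *Kdr* reached 604 ± 107 CPM per kb of exon (SD, n = 6) in CONV-R and 594 ± 102 CPM per kb (SD, n = 5) in GF. *Flt4* came next, at 187 ± 26.7 CPM per kb in CONV-R and 248 ± 46.9 CPM per kb in GF, below *Kdr* and above *Nrp1* in every library. *Nrp1* (118 ± 23.8 CPM per kb), *Nrp2* (97.3 ± 7.39 CPM per kb) and *Flt1* (93.9 ± 5.79 CPM per kb) lay close together in CONV-R, and neighbours in this order overlapped. In GF the order of these genes was *Nrp1* (131 ± 21.3 CPM per kb), *Flt1* (114 ± 15.4 CPM per kb) and *Nrp2* (78.1 ± 12.8 CPM per kb), so that *Flt1* stood above *Nrp2* in 5 of 5 GF libraries and below it in 4 of 6 CONV-R libraries. Ligand transcripts were rarer than those of the receptors and neuropilins. *Vegfc* led them in both groups, at 19.1 ± 6.52 CPM per kb in CONV-R and 30.4 ± 8.59 CPM per kb in GF. *Vegfa* followed in CONV-R at 14.9 ± 4.12 CPM per kb and shared the lowest tested level with *Vegfb* in GF, at 7.11 ± 2.37 and 7.56 ± 3.14 CPM per kb. The *Vegfc*, *Vegfa* and *Vegfb* levels overlapped from neighbour to neighbour in CONV-R. Exon length is the union of all annotated exons, so levels of genes with several isoforms are approximate on this scale.

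**Figure D2:**
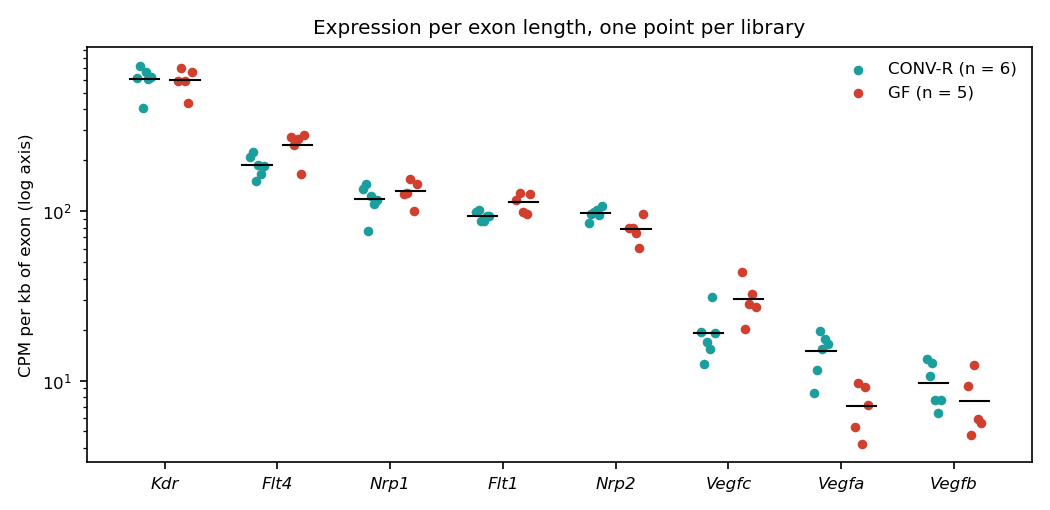
Expression of the 8 tested genes in CPM per kb of exon on a log axis, with 1 point per library for CONV-R (turquoise, n = 6) and GF (red, n = 5) and the group mean as a line. *Kdr* stands highest at means of 604 and 594 CPM per kb, and *Vegfa* drops from 14.9 to 7.11 CPM per kb to the level of *Vegfb*.

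*Kdr* (chromosome 5 of GRCm38, 75932827 to 75978458, minus strand) encodes the main signalling receptor for VEGF-A. The CONV-R libraries held 5500, 6522, 3659, 5986, 5455 and 5598 CPM in replicates 1 to 6. The GF libraries held 5311, 6326, 5295, 3922 and 5962 CPM in replicates 1, 2, 4, 5 and 6. The groups overlapped almost completely, with 1 low library in each. The Log2FC of *Kdr* was -0.02 ± 0.14 (SE; adjusted p = 0.950, edgeR), and its 95% interval ran from -0.33 to 0.28. Without both low libraries the Log2FC was -0.03.

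*Flt1* (chromosome 5, 147561604 to 147726011, minus strand) gives rise to a membrane receptor and to a soluble decoy, which gene-level counts do not separate. Its level was 1341, 1375, 1183, 1188, 1258 and 1266 CPM in CONV-R replicates 1 to 6. GF replicates 1, 2, 4, 5 and 6 held 1579, 1737, 1332, 1299 and 1716 CPM. Thus 3 GF libraries lay above all CONV-R libraries, and GF replicates 4 and 5 lay inside their range. The Log2FC of *Flt1* was 0.27 ± 0.10 (SE) with a 95% interval of 0.06 to 0.49 and an adjusted p of 0.120 in edgeR's test. Leaving out GF replicate 5 brought it past the threshold (Log2FC 0.33, adjusted p = 0.0478), while leaving out both low libraries did not (0.30, adjusted p = 0.0563).

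*Flt4* (chromosome 11, 49609263 to 49652739, plus strand) encodes the receptor of VEGF-C. It measured 1725, 1836, 1247, 1550, 1358 and 1520 CPM in CONV-R replicates 1 to 6. In GF replicates 1, 2, 4, 5 and 6 it measured 2255, 2035, 2210, 1374 and 2319 CPM. All GF libraries other than replicate 5 were above the highest CONV-R library. The Log2FC of *Flt4* was 0.41 ± 0.14 (SE; 95% interval 0.12 to 0.69), and the adjusted p of 0.0816 in edgeR's test missed the threshold. The call depended on the low libraries: without GF replicate 5 the Log2FC was 0.52 (adjusted p = 0.00893), and without it and CONV-R replicate 3 it was 0.46 (adjusted p = 0.00951). In both of these fits 3 of 8 pan-endothelial and 2 of 10 sinusoidal EC markers were also called higher in GF, against 0 of either list with all libraries, and their part in the *Flt4* result was not tested.

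In the receptor group, then, edgeR called 0 of 3 genes with all libraries, and DESeq2 and limma voom called none either. At an unadjusted p under 0.05, 2 of 3 were higher in GF (*Flt1* and *Flt4*). None of these 3 intervals reached a doubling or halving of expression.

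*Nrp1* (chromosome 8, 128358604 to 128503363, plus strand) encodes the co-receptor that strengthens VEGF-A signalling through VEGFR2. CONV-R replicates 1 to 6 held 1329, 1419, 750.5, 1208, 1087 and 1134 CPM. GF replicates 1, 2, 4, 5 and 6 held 1232, 1258, 1523, 978.2 and 1426 CPM. The lowest *Nrp1* library of each group was the one that was also lowest for *Kdr*. The Log2FC of *Nrp1* was 0.15 ± 0.15 (SE; 95% interval -0.16 to 0.46; adjusted p = 0.586, edgeR). A microRNA gene, *Mir1903*, shares 80 exon bases with *Nrp1* and has no row of its own in the count table.

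*Nrp2* (chromosome 1, 62703285 to 62818695, plus strand) encodes the co-receptor that pairs with VEGFR3 for VEGF-C. Its level in CONV-R replicates 1 to 6 was 1005, 1140, 1174, 1206, 1125 and 1263 CPM. In GF replicates 1, 2, 4, 5 and 6 it was 940.4, 937.9, 883.0, 718.0 and 1142 CPM. All GF libraries but replicate 6 were below the lowest CONV-R library. The Log2FC of *Nrp2* was -0.32 ± 0.11 (SE; 95% interval -0.56 to -0.08), with an adjusted p of 0.0987 in edgeR's test. It passed the threshold only without GF replicate 6 (Log2FC -0.41, adjusted p = 0.0478). EdgeR, DESeq2 and limma voom called 0 of the 2 neuropilins with all libraries, and 1 was lower at an unadjusted p under 0.05.

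Ratios within a library do not depend on its scaling, and 4 of them were compared by exact two-sided permutation of the 11 libraries, with p-values adjusted over the 4 ratios. The *Flt4* to *Kdr* ratio per exon length was 0.273 to 0.374 (median 0.303) in CONV-R and 0.353 to 0.466 (median 0.427) in GF. It was higher in GF by 0.41 ± 0.10 on the log2 scale (SE; exact p = 0.00866, adjusted p = 0.0346), and 4 of 5 GF libraries lay above all CONV-R libraries. The *Nrp2* to *Nrp1* ratio was 0.625 to 1.29 (median 0.840) in CONV-R and 0.479 to 0.662 (median 0.616) in GF. It was lower in GF, with a log2 difference of -0.49 ± 0.17 (SE; exact p = 0.0173, adjusted p = 0.0346), and 3 of 5 GF libraries lay below all CONV-R libraries. Without CONV-R replicate 3, which had the highest *Nrp2* to *Nrp1* ratio, and GF replicate 5, the difference was -0.38 and no longer passed (exact test, adjusted p = 0.0847). It passed in 5 of the 11 comparisons that left out 1 library, and lost its call without any 1 of CONV-R replicates 4, 5 and 6 or of GF replicates 2, 4 and 5 (adjusted p-values of 0.0508 to 0.0762). The *Flt4* to *Kdr* ratio lost its call without any 1 of CONV-R replicates 4, 5 and 6 or of GF replicates 4 and 5, with adjusted p-values of 0.0508 to 0.0762 in the exact test.

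The *Flt1* to *Kdr* ratio differed by 0.29 ± 0.12 on the log2 scale (SE; exact p = 0.0519, adjusted p = 0.0693). It passed without CONV-R replicate 3 (0.38, exact test, adjusted p = 0.0159), which had the highest CONV-R ratio (0.216). Without both low libraries it also passed (0.32, exact test, adjusted p = 0.0317). Those 2 libraries were singled out after the values were seen for low *Kdr*, the denominator of this ratio. The *Nrp1* to *Kdr* ratio differed by 0.19 ± 0.10 (SE; exact p and adjusted p = 0.0866). The smallest two-sided p that 5 against 6 libraries can give is 0.00433.

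**Figure D3:**
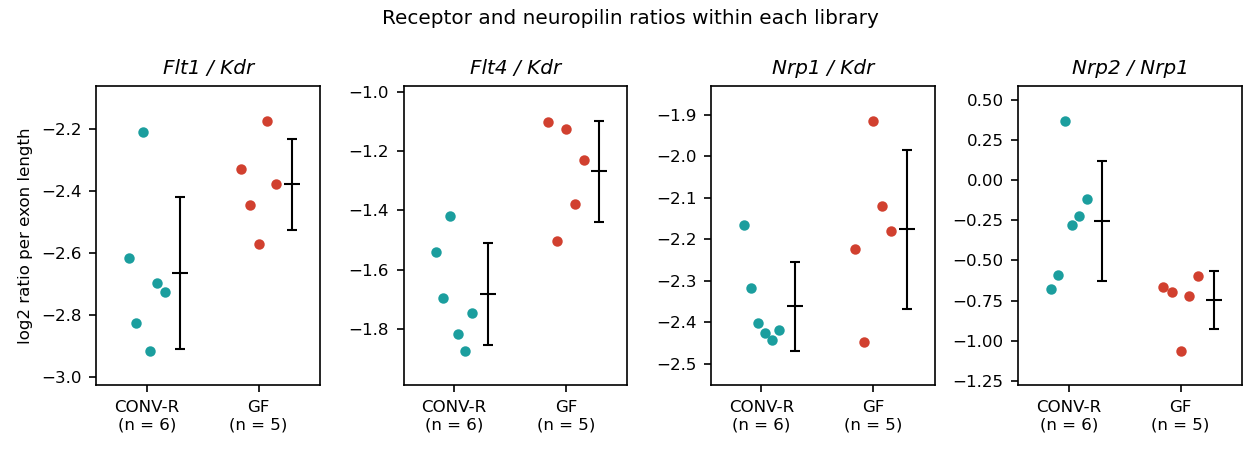
Log2 ratios of receptor and neuropilin expression per exon length, with 1 point per library for CONV-R (turquoise, n = 6) and GF (red, n = 5) and the mean with its SD as bars. The *Flt4* to *Kdr* ratio is higher in GF, with 4 of 5 libraries above all CONV-R libraries, and the *Nrp2* to *Nrp1* ratio is lower, with 3 of 5 below all CONV-R libraries.

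*Vegfa* (chromosome 17, 46016993 to 46032369, minus strand) encodes VEGF-A, the principal growth factor for blood vessel endothelium. Its level was 36.4, 49.6, 84.5, 65.4, 75.2 and 70.6 CPM in CONV-R replicates 1 to 6. GF replicates 1, 2, 4, 5 and 6 held 22.7, 41.5, 18.2, 39.4 and 30.5 CPM. The groups overlapped through CONV-R replicate 1, which lay below GF replicates 2 and 5, and 5 of 6 CONV-R libraries lay above all GF libraries. *Vegfa* fell by 1.06 ± 0.23 on the log2 scale (SE; 95% interval of the Log2FC -1.55 to -0.58; adjusted p = 0.00952, edgeR's quasi-likelihood test), on 4539 reads in CONV-R and 1494 reads in GF. With each of the 11 libraries left out in turn, the Log2FC stayed between -1.20 and -0.93 with adjusted p-values of 0.00319 to 0.0264. Without GF replicate 6, the library richest in Kupffer cell markers, it was -1.07 (adjusted p = 0.0264), and without both libraries of low *Kdr* it was -1.09 (adjusted p = 0.0111).

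Markers of hepatocytes, stellate cells, platelets and lymphatic ECs were scarce. The 10 hepatocyte markers, among them *Alb*, summed to 35.0 to 73.0 CPM in CONV-R and 43.4 to 105 CPM in GF, and edgeR called 0 of the 9 tested (1 higher at an unadjusted p under 0.05, none by DESeq2 or voom). Stellate cell and fibroblast markers summed to 4.66 to 10.9 CPM in CONV-R and 1.62 to 10.2 CPM in GF. EdgeR called 0 of the 2 tested, while 1 was lower in GF at an unadjusted p under 0.05, 1 by DESeq2 and 1 by voom. *Lrat*, named after its value was seen, went from a mean of 4.92 to 1.89 CPM (Log2FC -1.43 ± 0.49, SE; adjusted p = 0.0865, edgeR). Platelet and megakaryocyte markers summed to 7.52 to 12.5 CPM in CONV-R and 6.48 to 14.8 CPM in GF. Lymphatic EC markers summed to 8.0 to 13.7 CPM in CONV-R and 10.6 to 14.8 CPM in GF. The sums of these 4 lists overlapped between the groups, as did those of lymphocyte markers (5.14 to 13.2 CPM in CONV-R, 3.28 to 6.43 CPM in GF). Of the 3 lymphocyte markers tested, edgeR called 0, while 2 were lower in GF at an unadjusted p under 0.05, 1 by DESeq2 and 1 by voom. Cholangiocyte markers summed to 0.137 to 8.96 CPM in CONV-R and 13.6 to 36.8 CPM in GF, of which *Spp1*, also made by macrophages, was called higher. Both of the 2 tested were higher at an unadjusted p under 0.05, the other being *Krt19* (Log2FC 2.87 ± 1.01, SE; adjusted p = 0.0959, edgeR). *Epcam* (0.37 to 2.44 CPM), *Krt7* (0.20 to 0.85 CPM) and *Sox9* (0.17 to 0.74 CPM) also had higher means in GF, on too few reads for a test. The part of Kupffer cell RNA in the member results was not tested beyond leaving out GF replicate 6. Nor was that of the cells behind the cholangiocyte, stellate cell and lymphocyte markers.

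A promoter of *Vegfa* is shown as that of the member that was called. RefSeq's table lists 2 for this gene, and the one at the outer, more upstream start site was taken. It covers the 250 bases before that start site in RefSeq, GRCm38.p6, chr17:46032378-46032627, minus strand, read 5′ to 3′, and capitals mark the GC box GGGCGG, the core of the motif bound by Sp1-type factors.
Vegfa promoter: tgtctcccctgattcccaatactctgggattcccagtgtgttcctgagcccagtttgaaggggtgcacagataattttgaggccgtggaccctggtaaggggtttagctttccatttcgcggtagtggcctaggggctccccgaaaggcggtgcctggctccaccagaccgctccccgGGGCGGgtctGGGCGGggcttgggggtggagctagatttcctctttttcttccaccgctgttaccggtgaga
The box occurs 2 times on the strand shown, starting at -72 and -62 relative to the start site, and was searched on both strands (GGGCGG or CCGCCC). Of 32851 mouse promoters of the same length, 32.7% hold it, and the match describes these letters only.

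*Vegfb* (chromosome 19, 6982473 to 6987651, minus strand) encodes a ligand of VEGFR1. It was a low transcript, at 21.5, 17.1, 20.3, 12.3, 10.3 and 12.3 CPM in CONV-R replicates 1 to 6 and at 14.8, 7.63, 19.7, 9.52 and 8.95 CPM in GF replicates 1, 2, 4, 5 and 6. The groups overlapped, and the SD within each, 4.66 CPM in CONV-R and 5.05 CPM in GF, exceeded the difference of the means (15.6 and 12.1 CPM). The Log2FC of *Vegfb* was -0.35 ± 0.26 (SE; 95% interval -0.91 to 0.20; adjusted p = 0.453, edgeR).

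*Vegfc* (chromosome 8, 54077606 to 54187096, plus strand) encodes the ligand of VEGFR3. It measured 47.6, 30.5, 41.6, 37.5, 76.7 and 46.7 CPM in CONV-R replicates 1 to 6. In GF replicates 1, 2, 4, 5 and 6 it measured 106.6, 49.4, 69.6, 79.9 and 66.9 CPM. Apart from CONV-R replicate 5, every CONV-R library was below every GF library. The Log2FC of *Vegfc* was 0.67 ± 0.21 (SE; 95% interval 0.22 to 1.12), with an adjusted p of 0.0651 in edgeR's test. DESeq2 called it (adjusted p = 0.0334), as did edgeR without CONV-R replicate 5 (Log2FC 0.86, adjusted p = 0.0129) or without GF replicate 2 (0.79, adjusted p = 0.0393).

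As a description chosen after these values were seen, the *Vegfc* to *Vegfa* ratio per exon length was 0.862 to 2.29 in CONV-R and 2.08 to 8.20 in GF. Only GF replicate 2 lay within the CONV-R range.

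*Pgf* (chromosome 12, 85166635 to 85177790, minus strand), which encodes placental growth factor, was close to absent. Its reads numbered 3 in all 6 CONV-R libraries and 6 in all 5 GF libraries, which is too few for a comparison. VEGF-D, the other ligand of VEGFR3, is no member of the set chosen here. Its gene *Vegfd* had 38 reads in CONV-R and 24 in GF and was not tested either.

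**Figure D4:**
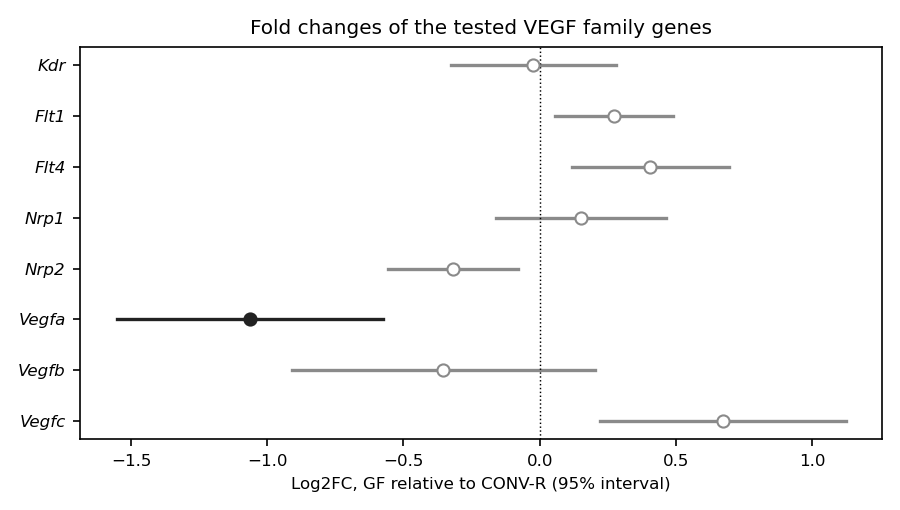
Log2FC of the 8 tested members, GF relative to CONV-R, with 95% intervals from edgeR's quasi-likelihood fit; a filled point marks an adjusted p under 0.05. *Vegfa* is filled at -1.06, while *Kdr* sits at -0.02 and *Vegfc* at 0.67.

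None of the 8 tested members had groups without overlap, against 5.59% of all tested genes. The genes whose level followed a receptor most closely over the 11 libraries were found by the root mean square (RMS) difference of centred log2 CPM. For *Kdr* these were *Prdm2* (0.0986), *Epha2* (0.108) and *Tmtc3* (0.109), where the median gene differed by 0.437. *Flt4* was followed most closely by *Cdh5*, the VE-cadherin gene (0.0844), *Ap2b1* (0.0915) and *Nucb1* (0.102), with a median of 0.473. For *Flt1* the nearest were *Plxna4* (0.0806), *Sf3b3* (0.0809) and *Cbx5* (0.0841), with a median of 0.401. The nearest genes to *Vegfa*, added after its call was seen, lay farther off: *A630001G21Rik* (0.227), *Gm13854* (0.249) and *Anapc15* (0.254), with a median of 0.768. These distances share libraries and depth with the members and are a description.

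Among 21 tested genes of a list known to be induced by VEGF in ECs, 7 rose in GF and 1 fell, against 4.80% and 2.67% of all tested genes. The median Log2FC of the list was 0.57. This list and those that follow were chosen with earlier results of these data known. The shares over all tested genes are therefore no independent comparison. *Stc1*, which encodes the hormone stanniocalcin 1, rose from 4.41 ± 0.91 to 16.9 ± 5.36 CPM (Log2FC 1.93 ± 0.24, SE; adjusted p = 0.000106, edgeR). *Vcam1*, an adhesion molecule that Kupffer cells also carry, rose from 151 ± 32.4 to 283 ± 36.0 CPM (0.90 ± 0.14; adjusted p = 0.000661). *Pdgfb*, the growth factor that recruits pericytes, rose from 14.4 ± 2.88 to 37.9 ± 15.6 CPM (1.39 ± 0.25; adjusted p = 0.00249). *Spry4*, an inhibitor of receptor tyrosine kinase signalling, fell from 147 ± 26.5 to 78.2 ± 12.7 CPM (-0.91 ± 0.14; adjusted p = 0.000734). The other genes that rose, named after their values were seen, were *Kcne3* (Log2FC 1.59), *Angpt2* (0.59), *Hey1* (1.14) and *Nr4a3* (2.18, at 5.50 ± 3.90 CPM in GF). The 13 that were not called, of which some are named after their values were seen, included *Nr4a1* (1.46, adjusted p = 0.0626), *Dll4* (0.23, adjusted p = 0.483), *Esm1* (0.54, adjusted p = 0.410), *Apln* (0.99, adjusted p = 0.159) and *Egr1* (-0.50, adjusted p = 0.530). With each library left out in turn, 7 to 10 genes were called higher and 1 lower, and without GF replicate 6 the counts were 7 and 1. Kupffer cell markers and 3 continuous EC markers were higher in the same GF libraries, and their part in these counts was not tested. Nor was their part in the calls of the lists that follow.

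**Figure D5:**
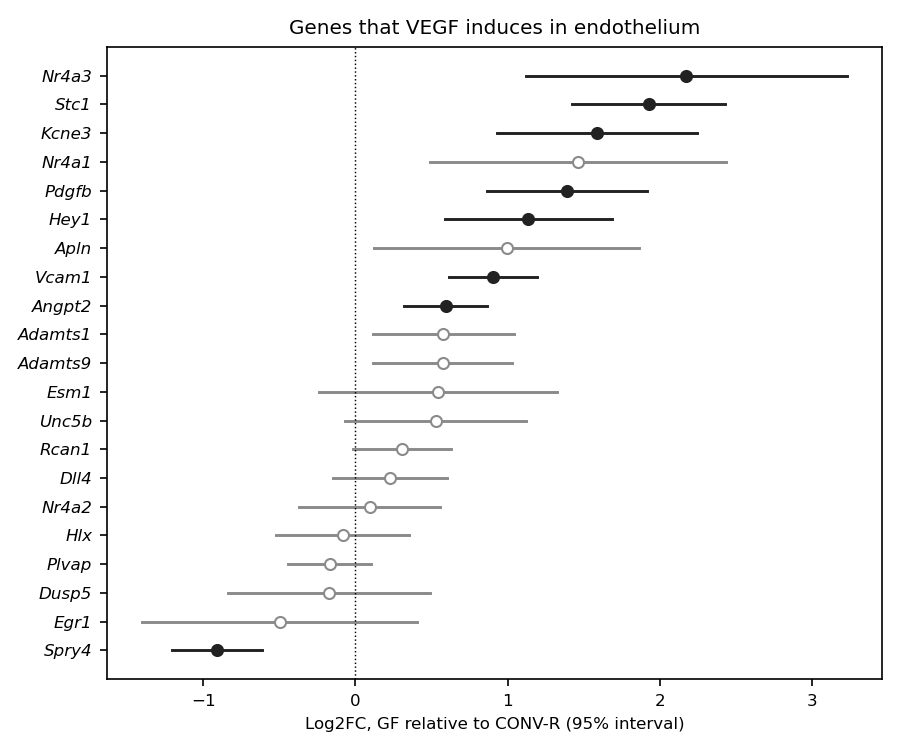
Log2FC with 95% intervals of the 21 tested genes listed as induced by VEGF in endothelium, GF relative to CONV-R; filled points have an adjusted p under 0.05 in edgeR's test. There are 7 filled points above 0, from *Angpt2* at 0.59 to *Nr4a3* at 2.18, and *Spry4* is filled at -0.91.

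The list of inhibitors and feedback regulators of VEGF signalling had 15 tested genes, of which 3 rose and 3 fell in GF, against 4.80% and 2.67% of all tested genes. The median Log2FC of the list was 0.03. *Dusp1*, a phosphatase of MAP kinases, rose from 236 ± 39.8 to 446 ± 50.1 CPM (0.92 ± 0.12, SE; adjusted p = 0.000190, edgeR). *Thbs1*, which encodes the angiogenesis inhibitor thrombospondin 1, rose from 2.12 ± 1.35 to 15.7 ± 9.37 CPM (2.88 ± 0.54; adjusted p = 0.00329), with 1.52 CPM in its lowest GF library. *Timp3*, whose product blocks VEGF binding to VEGFR2, rose from 546 ± 108 to 942 ± 223 CPM (0.79 ± 0.16; adjusted p = 0.00565). *Hhex*, a transcription factor of the liver and endothelium, fell from 78.8 ± 14.4 to 47.4 ± 11.7 CPM (-0.73 ± 0.17; adjusted p = 0.0134). The remaining genes that fell, named after their values were seen, were *Vash1*, the endothelial inhibitor vasohibin (-1.32), and *Thbs2* (-1.21). Without CONV-R replicate 5, *Thbs2* lost its call (adjusted p = 0.0518).

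In the intracellular signal transduction list, 2 of 44 tested genes rose and 1 fell, against 4.80% and 2.67% of all tested genes, with a median Log2FC of 0.08. The genes that rose were *Mapkapk2*, encoding a kinase downstream of p38, from 20 ± 6.15 to 38.8 ± 5.55 CPM (0.95 ± 0.19, SE; adjusted p = 0.00591, edgeR) and *Hspb1*, encoding its substrate, a small heat shock protein, from 1.24 ± 0.74 to 5.88 ± 3.04 CPM (2.23 ± 0.44; adjusted p = 0.00504). *Fyn*, a Src-family kinase, fell from 665 ± 99.7 to 484 ± 59.4 CPM (-0.46 ± 0.12; adjusted p = 0.0243) and lost its call without CONV-R replicate 4, GF replicate 2 or GF replicate 6, with adjusted p-values up to 0.0724. The remaining 41 genes were not called, among them *Mapk14*, the p38α gene, named after its value was seen (Log2FC -0.01, adjusted p = 0.983).

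Of 28 receptor partners, phosphatases and trafficking genes, 3 rose and 3 fell, against 4.80% and 2.67% of all tested genes, with a median Log2FC of 0.09. *Dab2*, an endocytic adaptor that takes part in VEGF receptor uptake, fell from 1886 ± 138 to 1241 ± 229 CPM (-0.60 ± 0.12, SE; adjusted p = 0.00455, edgeR). *Socs2*, a suppressor of cytokine signalling, fell from 33.4 ± 5.05 to 18.4 ± 3.94 CPM (-0.86 ± 0.17; adjusted p = 0.00432). *Ptprj*, a phosphatase that acts on VEGFR2, rose from 8.0 ± 2.71 to 21.1 ± 12.1 CPM (1.39 ± 0.32; adjusted p = 0.0126). *Itgb3*, the β3 integrin, rose from 47.4 ± 14.3 to 122 ± 91.4 CPM (1.37 ± 0.35; adjusted p = 0.0252), a call lost without CONV-R replicate 4, GF replicate 1 or GF replicate 2 (adjusted p up to 0.0896), with robust dispersion (adjusted p = 0.0847), and with limma on the authors' log2 values (adjusted p = 0.0522). *Cav1* (0.61) and *Myo6* (-0.35), named after their values were seen, were also called, and each lost its call in at least 6 of the fits that left out 1 library.

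Among the class 3 semaphorins and plexins that pair with neuropilins, edgeR called only *Sema3g* of 8 tested, where 7.48% of all tested genes were called. It rose from 1.64 ± 1.49 to 10.1 ± 4.77 CPM (2.59 ± 0.51, SE; adjusted p = 0.00481, edgeR). The median Log2FC of the 8 genes was 0.22, and 2 were higher in GF at an unadjusted p under 0.05. DESeq2 called 3 genes of this list higher in GF and voom called 2. Of 21 tested transcription factors that bind receptor genes, 1 rose and 1 fell, near the shares of 4.80% and 2.67% over all tested genes. At an unadjusted p under 0.05, 1 was higher and 5 lower, while DESeq2 and voom each called 1 higher and 1 lower. *Fli1* rose from 131 ± 8.56 to 189 ± 27.9 CPM (0.53 ± 0.11; adjusted p = 0.00628) and *Erg* fell from 238 ± 64.2 to 148 ± 18.7 CPM (-0.68 ± 0.15; adjusted p = 0.0122). Both encode ETS factors of the endothelium, and the median of that list was -0.06.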

How the data were processed

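Hepatic ECs of 5 GF and 6 CONV-R mice were profiled by RNA-seq. The study amplified 20 ng of total RNA per library and sequenced single reads of 50 bp, and its authors removed 1 GF library with few mapped reads. They obtained fewer sorted ECs and less RNA from GF than from CONV-R livers and report low viability of the sorted cells. In this design, the difference in yield cannot be told apart from the colonization state. The authors made the deposited raw counts per gene with Trim Galore 0.4.4, STAR 2.5.2b (GRCm38) and featureCounts 1.5.2, per the submitters' processing notes and the study's methods, and deposited a second table of normalized values on a log2 scale. The annotation release and strand setting are not given in the sources used here. Amplification without molecular identifiers adds error that counts do not show.

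Raw counts were tested with edgeR 4.0.16 (filterByExpr, TMM, quasi-likelihood test, R 4.3.3), with Benjamini-Hochberg adjustment over 12905 genes and a threshold of 0.05, after a check on simulated data. The check recovered 63.5% of genes changed by 1 on the log2 scale and 89.5% of those changed by 2. Of its calls, 2.67% were false. Smaller changes, the size of those of *Flt1*, *Flt4*, *Nrp2* and *Vegfc*, were not simulated. Ratios were compared by exact permutation over 462 splits (SciPy 1.17.1). Alternatives used DESeq2 1.42.0, limma 3.58.1, other scaling, filters, depth, the authors' log2 values, and left-out libraries. Exon lengths came from GENCODE M21, which matched 29081 of 29307 gene IDs; promoters came from RefSeq. The members and lists were chosen with earlier results of these data known. Named genes were every member, up to 4 called genes of smallest p per list, and the 3 genes nearest to the 3 members of highest CPM; other genes are marked as named after their values were seen. Libraries correlated within groups at 0.946 to 0.980 over genes.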

Additional observations from a re-analysis of the deposited data

Results flagged for a closer look

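Within the groups, 3 of 24 sets of values for the tested members and ratios had 1 library far from the others, where chance gives about 1 in 20. *Kdr* in CONV-R replicate 3 was 3659 CPM, below the 5455 to 6522 CPM of the other CONV-R libraries; the low *Kdr* of GF replicate 5 did not reach this limit. *Vegfc* in CONV-R replicate 5 was 76.7 CPM, above the 30.5 to 47.6 CPM of the others. The log2 *Nrp2* to *Nrp1* ratio per exon length in GF replicate 4 was -1.06, below the -0.72 to -0.60 of the other GF libraries.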

How the results depend on the processing

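DESeq2 called 1527 genes against 965 in edgeR, 956 of them shared, leaving out 1 library gave 622 to 1260, and leaving out both CONV-R replicate 3 and GF replicate 5 gave 1299. Member genes called higher in GF numbered 1 with DESeq2, without a filter, with the replicate block (*Vegfc* each time) and without both CONV-R replicate 3 and GF replicate 5 (*Flt4*; chosen after seeing the data), and 0 to 2 with 1 library left out; member genes called lower numbered 1 to 2. *Vegfa* kept its direction and its call under every alternative run, with a Log2FC of -1.20 to -0.86. *Kdr*, never called, changed sign with the authors' log2 values (0.000152) and without CONV-R replicate 2 (0.029), CONV-R replicate 4 (0.0017) or GF replicate 5 (0.070), and ran down to -0.12 with 1 library left out. With 1 library left out, the log2 ratio differences ran from 0.23 to 0.38 (*Flt1* to *Kdr*), 0.37 to 0.47 (*Flt4* to *Kdr*), 0.12 to 0.25 (*Nrp1* to *Kdr*) and -0.58 to -0.37 (*Nrp2* to *Nrp1*). Without both CONV-R replicate 3 and GF replicate 5, the *Flt1* to *Kdr* difference was 0.32 (passed), the *Flt4* to *Kdr* difference was 0.49 (passed) and the *Nrp2* to *Nrp1* difference was -0.38 (did not pass); the cause was not tested.

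Whether equal replicate numbers pair the mice was not settled. Deviations of same-numbered libraries correlated at -0.01 to 0.20, and 2 of 5 libraries matched their own number best, which is too few pairs to decide it. With the replicate block, 1101 genes were called against 931 without it on the same libraries. The *Flt4* to *Kdr* difference was then 0.47 (adjusted p = 0.125, exact) and the *Nrp2* to *Nrp1* difference -0.37 (adjusted p = 0.167, exact), in a sign-flip test of 5 pairs that cannot go below a raw p of 0.0625. Among the named pathway genes, voom lost *Itgb3*, *Thbs1*, *Cav1* and *Nr4a3*, and counts drawn down to the lowest total lost *Vash1* and *Cav1*; robust dispersion and the authors' log2 values also lost *Itgb3*. With 1 library left out, calls higher in GF numbered 2 to 4 in signal transduction, 1 to 4 among receptor partners and 1 to 3 among semaphorins and plexins. *Pgf* has too few reads for a test, and drawing counts down left *Vegfb* at a Log2FC of -0.38.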
